A study of Mus musculus with 4 samples.

Results

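The genes described are the heat shock proteins and chaperones on the array. They were taken by symbol, as every probe set (a group of short oligonucleotide probes for a transcript) that is not a control and whose array annotation gives exactly 1 gene symbol of the HSP70 (Hspa, Hsph), HSP90, small heat shock protein (Hspb), mitochondrial chaperonin (Hspd, Hspe), J-domain (Dnaj), cytosolic chaperonin (Cct, Tcp1), BAG, heat shock factor (Hsf), protein disulfide isomerase (Pdia), calreticulin or calnexin families. This gave 100 of 12422 probe sets, for 68 of 8251 genes. The symbol rule uses no measured value, though it was proposed with earlier results of these data known. Total RNA of the dentate gyrus, a part of the hippocampus, was measured on 4 arrays of 1 colour. The mice were young C57BL/6J males. All 4 were controls, handled and otherwise untreated, whose RNA was taken 1, 2, 4 or 6 h after shocked mice of the same study had their last shock. Samples of the shocked mice are not used here. A single array stands for each hour, so hour, animal and array cannot be told apart. Whether an RNA came from 1 mouse or from a pool is not stated in the labels. An SD below runs over the 4 control arrays, which may differ technically as well as between animals, and so few arrays give limited precision.

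Chaperones hold or refold proteins that expose hydrophobic stretches. HSP70 proteins do so in cycles of ATP use, in which J-domain proteins bring the client and trigger ATP hydrolysis, and BAG and HSP110 proteins exchange the nucleotide. HSP90 takes over late folding steps of kinases and steroid hormone receptors, and barrel-shaped chaperonins (CCT in the cytosol, Hspd1 with Hspe1 in mitochondria) enclose a client. In the endoplasmic reticulum (ER), the HSP70 protein BiP (Hspa5), the HSP90 protein Grp94 (Hsp90b1), the lectins calnexin and calreticulin and the disulfide isomerases handle secreted and membrane proteins. Heat shock factors induce the cytosolic genes through heat shock elements, and the unfolded protein response induces many ER genes through ER stress response elements. Neurons carry much constitutive HSP70 (Hspa8), and Dnajc5, the cysteine string protein, sits on synaptic vesicles.

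The 2 kinds of element were searched as plain letters, on both strands, in RefSeq promoters of the GRCm38.p6 assembly, from 250 bases before to 50 bases after each gene's start. The table held 59 of the 68 genes. The remaining 9 were Cct4, Dnajc2, Dnajc5, Dnajc11, Hsf4, Hsp90aa1, Hspa8, Hspa9 and Hspb2. The facing pair of heat shock units, GAANNTTC, was found in 11 of the 59 genes (18.6%) and in 9.04% of all 27025 genes of the table. The back-to-back pair, TTCNNGAA, was found in 8 (13.6%) and in 9.6% of all genes. The triplet, GAANNTTC followed by 2 bases of any kind and GAA, contains both pairs and was found in Hspd1, Hspe1, Dnajb6 and Hsph1 (6.78%), against 0.662% of all genes. A match is a description of the letters and no measured binding site, and genes without one are not thereby without the element. The stretches below are examples that hold the letters of the heat shock element. Other genes with a match before the start, such as Cct2, Cct5, Dnajb4 and Dnajc10, are not shown. Capitals mark the triplet in Hspe1 and Dnajb6 and a facing pair in the others. The Hspb1 stretch holds a second facing pair, nearer its start, which is left in lower case.
Hspe1 (chr1:55088053-55088082, plus strand): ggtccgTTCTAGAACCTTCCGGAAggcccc
Dnajb6 (chr5:29735829-29735888, plus strand): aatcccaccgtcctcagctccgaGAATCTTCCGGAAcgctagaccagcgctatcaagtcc
Hspa1a (chr17:34972227-34972286, minus strand): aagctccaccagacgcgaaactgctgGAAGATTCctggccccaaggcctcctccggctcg
Hspa1b (chr17:34959309-34959368, minus strand): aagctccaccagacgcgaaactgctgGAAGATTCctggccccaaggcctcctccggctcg
Hspb1 (chr5:135887776-135887835, plus strand): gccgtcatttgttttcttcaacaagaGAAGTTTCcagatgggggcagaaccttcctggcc
Dnaja1 (chr4:40722318-40722377, plus strand): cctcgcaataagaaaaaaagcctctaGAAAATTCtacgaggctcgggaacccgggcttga
The Hspe1 capitals are 2 overlapping triplets, 72 to 89 bases before its start. Hspd1 runs the other way from a start 215 bases off, so the same letters lie before both genes of the mitochondrial chaperonin. The promoters of the neighbouring copies Hspa1a and Hspa1b had the same base at 296 of 300 positions. Hsph1 is not shown, since its triplet follows the start.

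The ER element, CCAAT, 9 bases of any kind and CCACG, was found in 6 of the 59 genes (10.2%) and in 0.137% of all genes. The 6 were Hspa5, Hsp90b1, Calr, Canx, Pdia6 and Dnajc3, each of which codes for a protein of the ER. They are shown because each of the 6 matches lies in a gene for an ER protein. The same letters were not found in the windows of Pdia3, Pdia4, Pdia5, Dnajb9, Dnajb11 and Dnajc10, which code for ER proteins too, so they mark some of the ER members. Capitals mark the element, which lies on the opposite strand in Calr.
Hspa5 (chr2:34772005-34772064, plus strand): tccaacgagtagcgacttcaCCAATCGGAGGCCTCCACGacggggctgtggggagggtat
Hsp90b1 (chr10:86705617-86705676, minus strand): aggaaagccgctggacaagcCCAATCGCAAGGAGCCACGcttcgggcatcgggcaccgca
Calr (chr8:84847054-84847113, minus strand): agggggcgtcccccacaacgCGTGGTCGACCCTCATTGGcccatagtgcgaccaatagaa
Canx (chr11:50325779-50325838, minus strand): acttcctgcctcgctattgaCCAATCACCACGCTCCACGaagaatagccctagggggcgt
Pdia6 (chr12:17266471-17266530, plus strand): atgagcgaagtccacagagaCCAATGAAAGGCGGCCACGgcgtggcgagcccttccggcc
Dnajc3 (chr14:118937807-118937866, plus strand): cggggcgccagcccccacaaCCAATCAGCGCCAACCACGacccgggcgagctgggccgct
In Hspa5 the capitals end 47 bases before the start. Hsp90b1 holds a second match nearer its start, which is not shown. All 6 genes had probe sets on the array, and their levels across the hours are compared below.

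The deposited intensities are on a linear scale with the same trimmed mean, 500.3, in all 4 arrays. The 1 h array stood apart: the control transcript Gapdh had a ratio of its 3' to its 5' probe set of 4.88 at 1 h and 1.13, 1.33 and 1.24 at 2, 4 and 6 h, and that of beta-actin was 2.51 at 1 h and 1.83 to 2.20 later. The part of this ratio in any chaperone difference at 1 h was not tested. The tissue label was checked against marker lists of 10 cell types. Measured markers included 4 of 5 granule cell genes, with a summed intensity of 4033 to 4709 over the arrays, and 3 of 5 neuronal genes, with 19866 to 23049. No list had a measured gene under the floor in all arrays. The sums were 3696 to 4891 for CA pyramidal cells, 12358 to 12610 for interneurons, 15529 to 18476 for astrocytes and 9684 to 13912 for oligodendrocytes. They were 7697 to 8761 for microglia, 754 to 1293 for endothelium and 2470 to 3904 for erythrocytes. The choroid plexus and ependyma sum went from 2128 at 1 h to 7061 at 6 h. The part of such cells in the values below was not tested, and fewer cells of a type cannot be told from less RNA per cell.

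Of the 100 chaperone probe sets, 79, for 60 genes, passed the filter on dim probe sets (a mean log2 intensity at the 40th percentile of all probe sets or above), against 60% of all probe sets. Intensity does not rank transcripts between genes, but it shows which values lie near the floor of 16.4 under which values were set to it. The 21 dim probe sets were those of Hspa1l, Hspb1, Hsf2, Hsf4, Dnajb3 (2 probe sets), Dnajb8, Pdia5 and Calr, for which no brighter probe set was measured, and further probe sets of Hspa4 (2), Hsp90aa1, Hspb2, Hspb8, Cct6a, Tcp1, Dnajb13, Dnajc1, Dnajc3, Bag2 and Bag3. Identifiers that end in other letters than a plain _at mark probe sets that can share sequence with related genes or hold fewer probes. They made up 27 of the 100, and 10 of these 27 were dim, against 11 of the other 73.

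**Figure D1:**
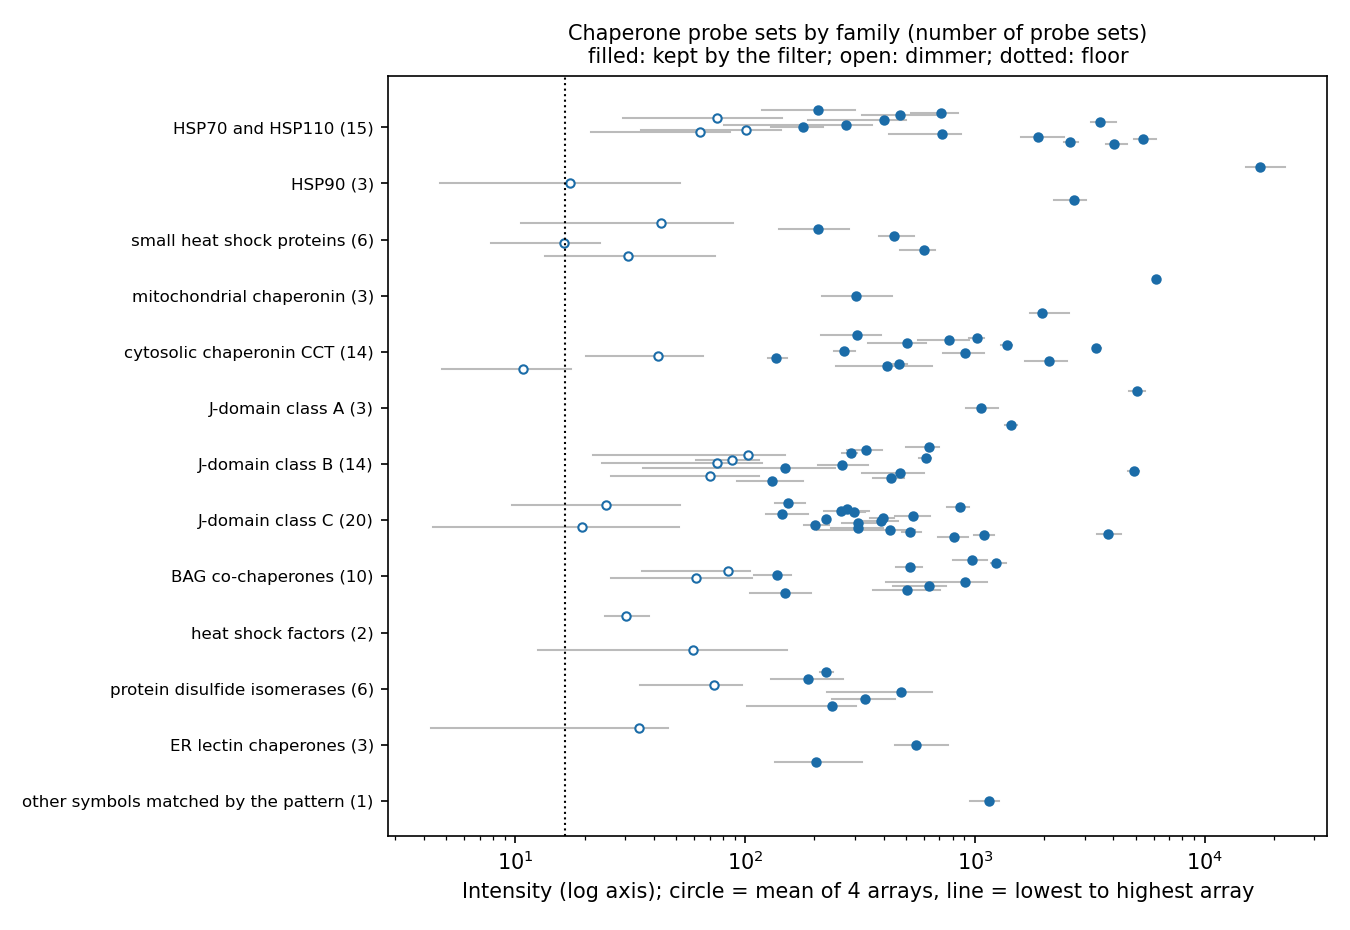
Mean intensity of each chaperone probe set over the 4 control arrays (circles) with the lowest and highest array (lines), by family on a log axis. Filled circles are the 79 probe sets that passed the filter, open circles the 21 dim ones, and the dotted line is the floor of 16.4; the lines are longest among the dim probe sets.

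The kept chaperones varied between the control arrays about as much as other probe sets did. The median SD of the 79 kept probe sets was 0.226 in log2 units (1.17-fold), beside 0.243 over all 7453 kept probe sets. Leaving out 1 h gave 0.141 and 0.182. In 44 of 79 (55.7%) no arrays were 1.5-fold apart, against 54.1% of all. A straight line through the log2 values against the hour was tested with limma. After Benjamini-Hochberg adjustment over the 7453 probe sets, 0 of 79 passed at an adjusted p of 0.05 (background 0.0134%, which is 1 probe set). At an unadjusted p under 0.05 there were 3 of 79 (3.8%), against 4.4% of all, and they belong to Hspa14, Cct7 and Cct3. That count was 1 without the 6 h array and 16 without the 2 h array. The 4.4% holds for the fit on all 4 arrays, and no such share was taken with an array left out. Whether other probe sets changed likewise was therefore not tested. Strictly rising values were seen in 6 of 79 (background 4.44%) and strictly falling values in 4 (background 5.98%). An array standing far from the other 3 by Dixon's criterion was seen in 5 of 79 (6.33%, background 8.63%). In all 5 it was the 1 h array. Of all kept probe sets 643 were so flagged, and in 390 of these it was the 1 h array. As a share of all kept probe sets, the 1 h array stood apart in 6.33% of the chaperones and 5.23% of all. Positive slopes numbered 37 of 79 (46.8%, background 46.5%).

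The array at 1 h differed from the later ones in a few members. Compared with the mean of the later 3 arrays, 7 of 79 (8.86%) were at least 2-fold lower at 1 h (background 5.29%) and 1 was at least 2-fold higher (background 1.8%). Each later array set in this way against the mean of its other 3 gave 1 of 79 at 2 h (Dnajb5, background 3.39%), which was 0 without the 1 h array. It gave 0 at 4 h (background 2.82%) and 0 at 6 h (background 2.76%). Set against 1 h alone, 9 were higher and 2 lower at 2 h (background 6.35% and 3.45%), 8 and 0 at 4 h (5.68% and 2.74%), and 8 and 2 at 6 h (5.69% and 3.65%). These 3 comparisons share the 1 h array. Set against the mean of the other 2 later hours, 0 differed at 2 h (background 3.15%), 1 at 4 h (3.15%) and 0 at 6 h (2.72%). The 1 was Tcp1. No replicate stands behind these differences, so they carry no p-value.

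**Figure D2:**
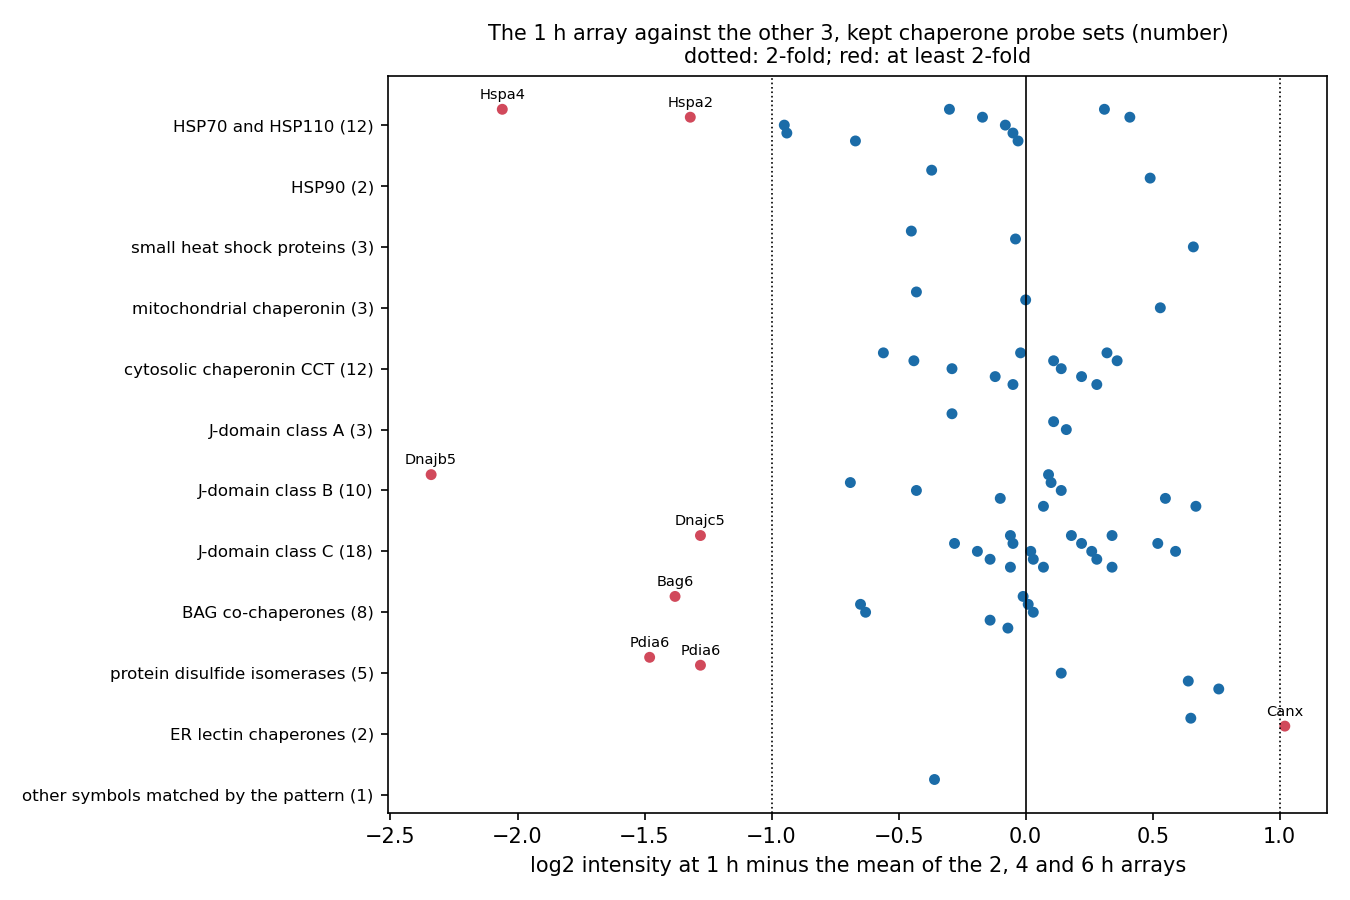
Log2 intensity at 1 h minus the mean of the 2, 4 and 6 h arrays (x axis) for the 79 kept chaperone probe sets, by family. Dotted lines mark 2-fold; 7 probe sets lie beyond it on the lower side, of Dnajb5, Hspa4, Pdia6 (2), Bag6, Hspa2 and Dnajc5, and 1 of Canx on the higher side.

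In the HSP70 and HSP110 family, values are given in the order 1, 2, 4 and 6 h, as in all that follows. Hspa8, the constitutive cytosolic HSP70, read 4926, 6106, 5110 and 5499, a mean of 5410 ± 522 (SD, n = 4). Hsph1, the HSP110 protein that exchanges nucleotide on HSP70, read 3915, 4568, 3886 and 3717. Hspa9, the mitochondrial HSP70 mortalin, read 2482, 2818, 2435 and 2637. All 3 were highest at 2 h, and their later values spanned at most 0.30 on the log2 scale. Hspa5, the ER chaperone BiP whose promoter element is shown above, read 1592, 2446, 1666 and 1849, again highest at 2 h.

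The stress-inducible pair Hspa1a and Hspa1b was measured well above the floor in these handled mice. Hspa1a read 686, 847, 528 and 775 and Hspa1b 321, 689, 408 and 471. Both were highest at 2 h, but Hspa1a was lowest at 4 h and Hspa1b at 1 h. The genes are near-identical copies whose signals the probes may share, so the 2 readings are not independent. Their slopes on the hour were -0.01 ± 0.07 and 0.03 ± 0.10 (SE) log2 units per hour, with adjusted p = 0.983 and 0.974 in limma. Hspa1l, the copy that is read mainly in the testis, was dim, at 144, 82.9, 29.5 and 44.3.

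Of the 12 kept probe sets of this family, 7 were highest at 2 h (58.3%), against 25.4% of all probe sets and 27 of the 79 chaperones (34.2%). Under scaling to a common median these were 6 of 12, 20.9% and 22 of 79 (27.8%). The same 12 lay below the mean of the later arrays at 1 h in 10 cases (83.3%) under either scaling, against 45.4% of all probe sets as deposited and 49.2% scaled. Over the 79 chaperones that share was 53.2% as deposited and 58.2% scaled. Several probe sets of the 12 belong to Hspa4 or can share signal, and the counts come with no test.

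Several less bright probe sets of the family were lowest at 1 h. The widest margin was that of Hspa4 on 100353_g_at, given below with the gene's other probe sets. Hspa2, an HSP70 known for its role in sperm development, read 189, 491, 419 and 504, 2.49-fold below the mean of the later arrays at 1 h. Hspa4l, an HSP110 relative, read 423, 865, 814 and 761, 1.92-fold below. Hspa14, a ribosome-associated HSP70 relative, read 119, 154, 258 and 301. Its values ran strictly upward, with a slope of 0.28 ± 0.08 (SE), an unadjusted p of 0.0136 and an adjusted p of 0.874 in limma. In Hspa2 and Hspa4l the 1 h value lay apart from the later ones. In Hspa14 the step from 1 h to 2 h was smaller than the range of 0.96 log2 units over the later hours. Hspa1b, given above, was lowest at 1 h as well, 1.59-fold below the mean of the later arrays.

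**Figure D3:**
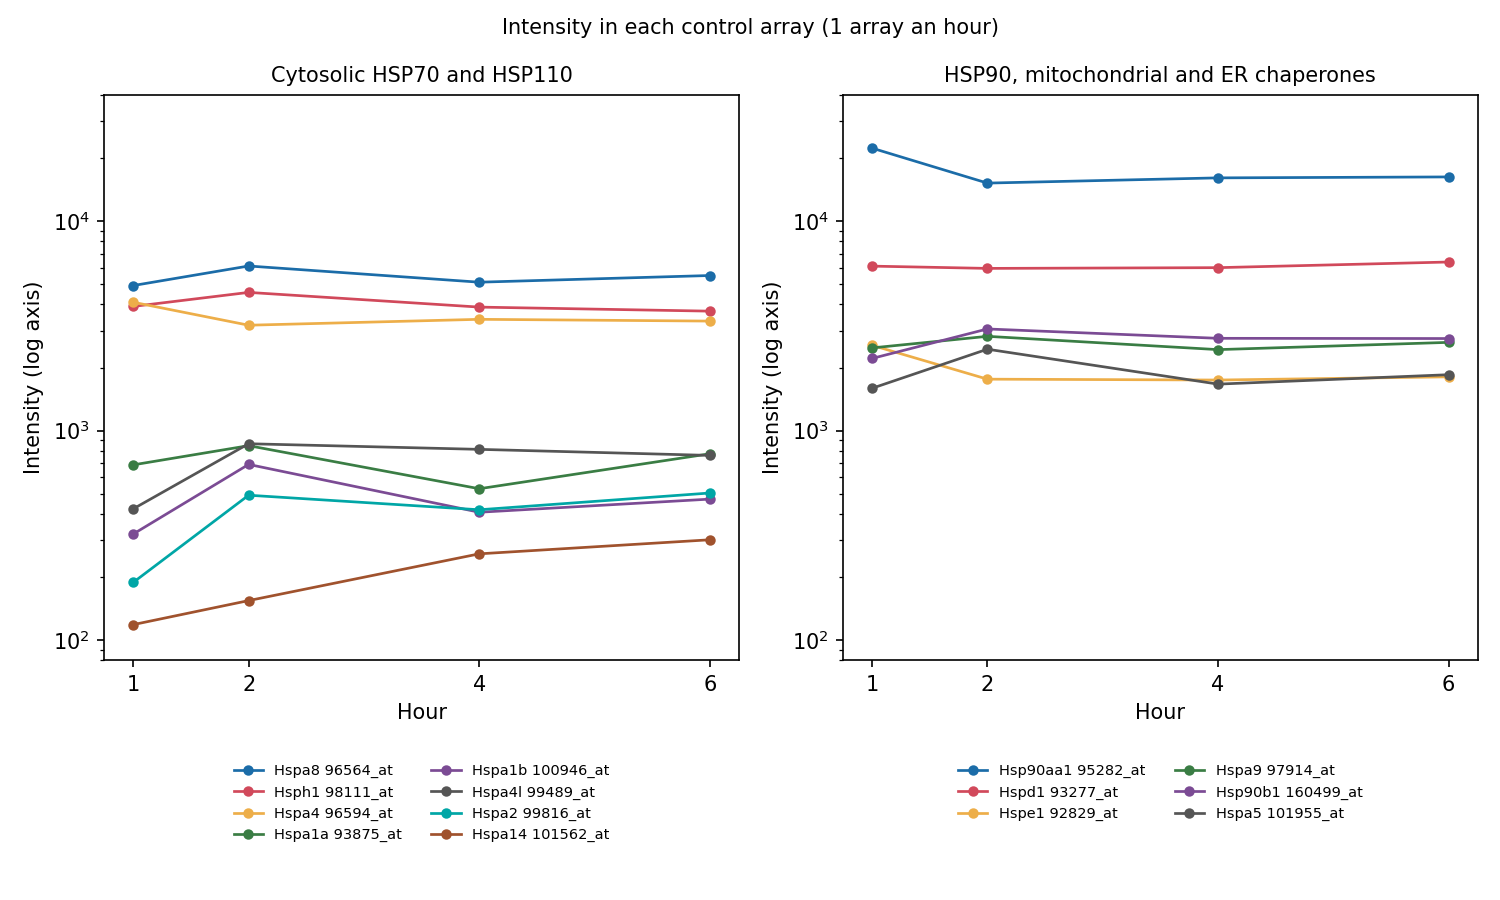
Intensity (log axis) at 1, 2, 4 and 6 h, 1 array an hour, for 8 cytosolic HSP70 and HSP110 probe sets (left) and 6 HSP90, mitochondrial and ER probe sets (right). Hspa8, Hspa9 and Hspd1 run nearly level, Hspa2, Hspa4l, Hspa14, Hspa1b, Hspa5 and Hsp90b1 are lowest at 1 h, and Hsp90aa1 and Hspe1 are highest at 1 h.

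Hsp90aa1, the cytosolic HSP90 alpha, had the highest intensity of any chaperone probe set. It read 22305, 15188, 16086 and 16254, a mean of 17458 ± 3265 (SD, n = 4). The 1 h value was above the later 3, which lay within 0.10 of each other on the log2 scale. Its slope was -0.06 ± 0.05 (SE), with the sign turned without the 1 h array (0.024). A second probe set of the gene, 161869_i_at, was under the floor in 3 arrays and read 5.8, 6.4, 52.1 and 4.7. Hsp90b1, the ER form Grp94, read 2210, 3056, 2757 and 2751, with the 1 h value below the later ones.

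Small heat shock proteins, which hold unfolding proteins without ATP, were dim or moderate. Hspb8, a partner of Bag3 in autophagy of misfolded proteins, read 474, 639, 668 and 631 and was lowest at 1 h. Hspb2, a muscle-type member, read 434, 425, 544 and 382 with 1 probe set, while a dim second probe set gave 20.8, 23.4, 7.8 and 12.9. Hspb11, which is a part of the intraflagellar transport machinery of cilia and shares the family's name, read 282, 140, 173 and 235. Hspb1 (Hsp25), which astrocytes and vessels make under stress, read 88.1, 10.6, 13.3 and 60.7, under the floor at 2 and 4 h.

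The mitochondrial chaperonin pair, which shares the promoter letters shown above, did not run in parallel. Hspd1, the barrel subunit, read 6097, 5947, 5995 and 6379, a mean of 6105 ± 194 (SD, n = 4) and an SD of 0.045 on the log2 scale. Hspe1, its lid, read 2553, 1760, 1743 and 1805. The 1 h value of Hspe1 was above the other 3, which spanned 0.05 on the log2 scale, while Hspd1 at 1 h lay among its later values. A second Hspd1 probe set, 161140_r_at, read 233, 436, 216 and 328. It spanned 1.01 on the log2 scale over the later hours alone and did not follow the first.

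CCT, the cytosolic chaperonin that folds actin and tubulin, has 8 different subunits in each ring, and each had at least 1 kept probe set. Cct5 read 3330, 3541, 3260 and 3347 (302, 290, 247 and 243 on a less bright probe set) and Cct4 1455, 1300, 1401 and 1344, with SDs of 0.051 and 0.071 on the log2 scale. Cct7 read 1646, 2062, 2170 and 2511, strictly upward, with a slope of 0.11 ± 0.04 (SE), an unadjusted p of 0.0353 and an adjusted p of 0.874 in limma. Cct8 read 401, 455, 507 and 508, also upward. The subunits did not share a direction: 6 of the family's 12 kept slopes were positive, against 46.5% of all probe sets.

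Cct3 was measured by 3 probe sets that moved differently. They read 1094, 1027, 1017 and 939, 565, 943, 737 and 830, and, on 161238_f_at, 580, 614, 480 and 343. The last had a slope of -0.16 ± 0.05 (SE) and an unadjusted p of 0.0214 in limma, while the second was positive, at 0.06. Cct2 read 358, 259, 214 and 391, and Cct6a 1036, 780, 1094 and 727. Tcp1, the first subunit, read 379, 250, 649 and 373, and its 4 h value stood 1.09 log2 units above the mean of 2 and 6 h, which made it the member that differed at 4 h. The testis form Cct6b read 127, 137, 152 and 126.

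J-domain proteins of class A, the closest relatives of bacterial DnaJ, were steady. Dnaja1 read 5475, 4932, 5119 and 4678, Dnaja2 910, 1259, 1085 and 1007 and the mitochondrial Dnaja3 1520, 1367, 1357 and 1500. Their SDs on the log2 scale were 0.095, 0.197 and 0.087, and in none of the 3 genes were arrays 1.5-fold apart.

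Class B, which acts with Hspa8 and HSP110 on aggregates, had SDs of 0.064 to 1.225 on the log2 scale, with a median of 0.22. The median of class A was 0.095. Apart from the brighter Dnajb6 probe set, the kept probe sets of class B were less bright than those of class A. The part of intensity in this difference was not tested. Dnajb6, which keeps polyglutamine proteins soluble, read 5188, 4654, 4947 and 4911 on its brighter probe set and 322, 603, 495 and 474 on the other, of which only the dimmer was low at 1 h. Dnajb1, the main stress-inducible member, read 500, 637, 677 and 701, strictly upward, with a slope of 0.08 ± 0.05 (SE) and adjusted p = 0.874 in limma. Dnajb2, a neuronal form, read 632, 601, 569 and 644. Dnajb5 had the largest difference of any kept chaperone, at 35.8, 245, 132 and 184, which is 5.06-fold lower at 1 h than the mean of the later arrays. It was also the only member 2-fold from the mean of the others at 2 h (1.36 higher on the log2 scale), and its sign of slope turned without the 1 h array, from 0.30 to -0.10. Of the genes whose heat shock letters are shown above, Dnaja1, Hspe1 and the brighter probe set of Dnajb6 were highest at 1 h. Hspa1a, Hspa1b and the dimmer probe set of Dnajb6 were highest at 2 h, and Hspb1 was dim. Hspd1, which shares the Hspe1 letters, was highest at 6 h on its brighter probe set and at 2 h on the other. Of all kept probe sets, 35.4% were highest at 1 h, 25.4% at 2 h and 18.5% at 6 h. Genes with a match that is not shown are left out of this list.

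The other class B members were less bright. Dnajb4 read 344, 290, 207 and 215 and was highest at 1 h. Dnajb9 and Dnajb11, co-chaperones of BiP in the ER, read 407, 491, 362 and 464 and 356, 394, 279 and 311. A second Dnajb9 probe set read 179, 145, 92.4 and 108. The axonemal Dnajb13 read 303, 305, 287 and 265, with 21.8 to 149 on a dim second probe set, and the testis genes Dnajb3 and Dnajb8 had means between 70.3 and 87.5.

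Class C, whose members share little beyond the J domain, held 18 kept probe sets of 14 genes. Dnajc5, the cysteine string protein that guards SNARE proteins at synapses, read 206, 486, 463 and 551, 2.42-fold lower at 1 h than the mean of the later arrays. The other 17 kept probe sets of the class did not reach 2-fold. Dnajc8, a splicing-related member, read 4314, 3389, 3783 and 3661 and, on a second probe set, 987, 1115, 1066 and 1207, the first highest and the second lowest at 1 h. Dnajc4 read 398, 307, 294 and 237, strictly downward, with a slope of -0.13 ± 0.06 (SE) and adjusted p = 0.874 in limma.

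Among the rest of class C, Dnajc3, the ER protein p58IPK that curbs the kinases of the translation block, had means of 391, 309 and 200.4 on its 3 kept probe sets, with SDs of 0.155 to 0.248 on the log2 scale. Dnajc10, a reductase of the ER, read 939, 758, 839 and 891, and Dnajc7, a co-chaperone of HSP70 and HSP90, 482, 581, 530 and 486. Dnajc13, which acts on endosomes with Hspa8, read 347, 220, 228 and 244 and was highest at 1 h. Dnajc21 had the smallest spread of all kept members, at 229, 222, 218 and 231, an SD of 0.04 on the log2 scale. The means of Dnajc1, Dnajc2, Dnajc9, Dnajc11, Dnajc15 and Dnajc17 lay between 145 and 808 on their kept probe sets.

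**Figure D4:**
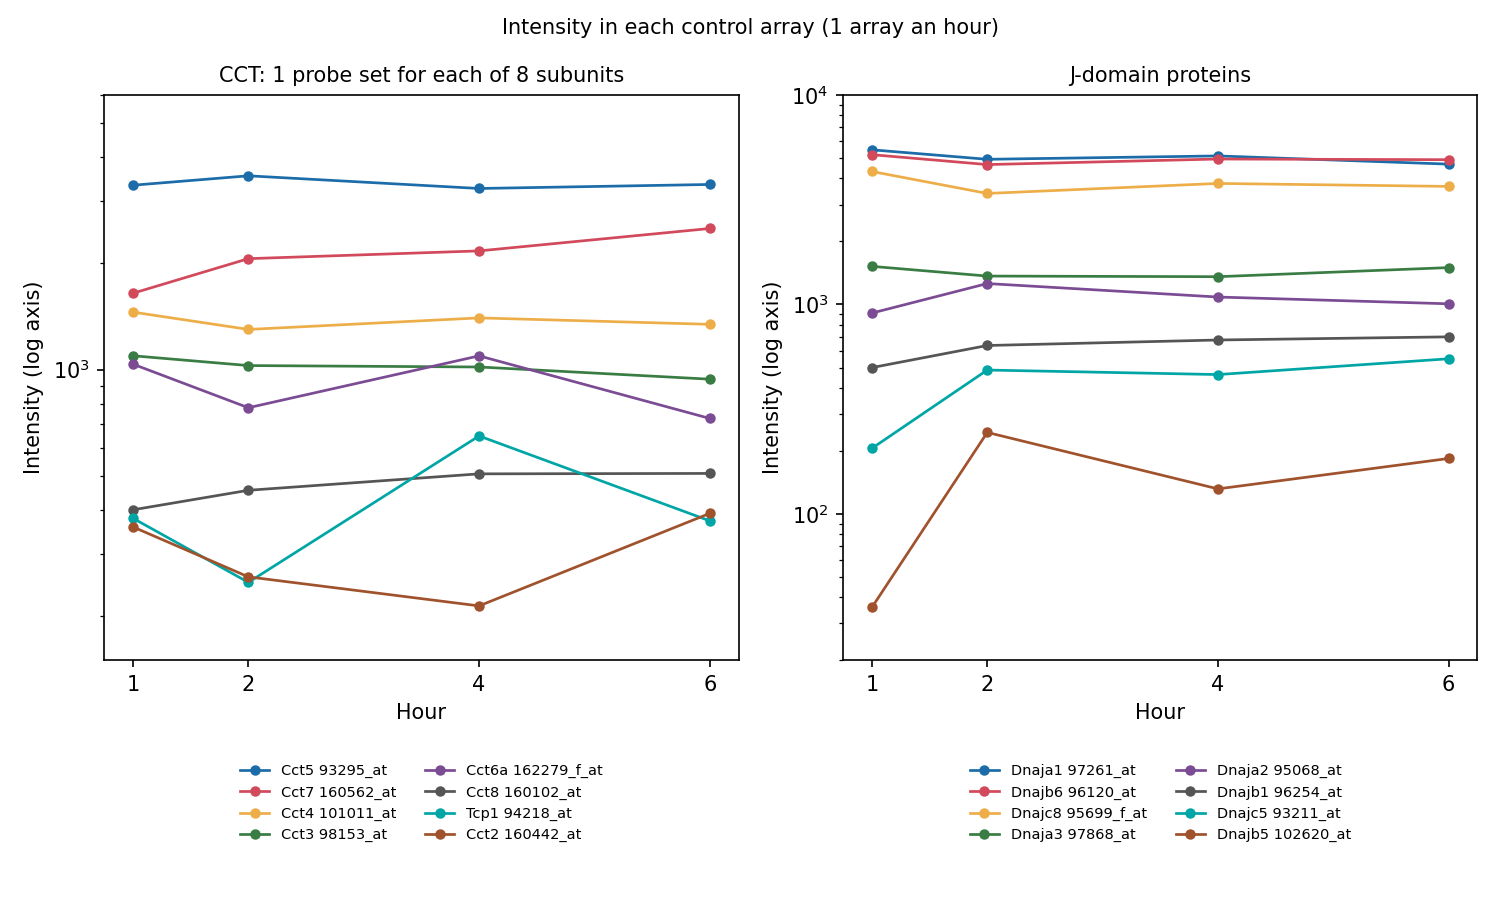
Intensity (log axis) at 1, 2, 4 and 6 h, 1 array an hour, for 1 probe set of each of the 8 CCT subunits (left) and for 8 J-domain probe sets (right). Cct5 and Cct4 are level, Cct7 is higher at each hour, Tcp1 peaks at 4 h, and Dnajc5 and Dnajb5 are lowest at 1 h.

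BAG proteins release clients from HSP70. Bag6, which guides tail-anchored and misfolded proteins, had 4 kept probe sets. Its brightest, 93922_g_at, read 408, 1129, 1016 and 1053, 2.61-fold lower at 1 h than the mean of the later arrays. The others read 439, 696, 627 and 752, 105, 137, 160 and 193 and, on 101854_r_at, 494, 473, 701 and 360. The first 2 of these were lowest at 1 h as well, and the last was not. Bag1 read 899, 1057, 804 and 1131, Bag2 1228, 1370, 1173 and 1174 on its brightest probe set and 531, 588, 454 and 522 on the next, and Bag3, the stress-inducible member, 131, 109, 159 and 151. Only 2 heat shock factors were among the members, Hsf2 and Hsf4, and Hsf1 was not. Both were dim: Hsf2 read 26.2, 24.6, 32.4 and 38.1 and Hsf4, the lens form, 153, 45, 27 and 12.5, so neither was tested. Hspbp1, a nucleotide exchange factor of HSP70 that the symbol pattern takes in, read 950, 1269, 1183 and 1219.

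The ER chaperones with the element shown above did not share a direction at 1 h. Hspa5 and Hsp90b1 were lowest at 1 h and highest at 2 h. Canx, the membrane lectin calnexin, was highest at 1 h on both of its probe sets, which read 763, 500, 512 and 447 and 323, 135, 219 and 138. The second was 2.02-fold above the mean of the later arrays at 1 h. Pdia6, a disulfide isomerase that also restrains stress sensors, was lowest at 1 h on 2 probe sets and highest on another. They read 228, 648, 458 and 573, 102, 269, 305 and 279 and 449, 369, 238 and 271. The Dnajc3 probe sets had no common order, and Calr, the soluble lectin calreticulin, was dim on its only probe set, at 4.3, 43.7, 44.2 and 46. Genes with these letters lay on both sides of their later arrays at 1 h, as did the probe sets of Pdia6 alone. The part of the 3' to 5' ratio of the 1 h array in these values was not tested.

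The remaining disulfide isomerases were lower in intensity. Pdia3 (ERp57), the partner of calnexin and calreticulin, read 242, 236, 211 and 211. Pdia4 (ERp72) read 266, 149, 204 and 130, at 6 h 1.04 log2 units below 1 h, and the dim Pdia5 97, 75.5, 86.6 and 34.7. The 5 kept isomerase probe sets had the largest median SD of the families with more than 2 kept probe sets, 0.466 on the log2 scale, against 0.226 for all 79. They stand for only 3 genes, and 3 of the 5 are the Pdia6 probe sets, which disagreed at 1 h.

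Probe sets of the same gene could disagree at 1 h. Of 13 genes with more than 1 kept probe set, 11 had probe sets on both sides of the mean of the later arrays, some by small values on either side of 0, as in Bag2 (-0.01 and 0.03 on the log2 scale). That is 84.6%, beside 48.7% of the 909 genes with several kept probe sets on the array. These shares were not matched for the number of probe sets per gene or for the size of the differences. In 3 of the 13 (Hspa4, Bag6 and Pdia6; 23.1%) they were at least 2-fold apart, beside 21.6% of the 909. Hspa4, an HSP110 protein, read 4098, 3184, 3398 and 3332 on its brightest probe set, highest at 1 h, but 81.2, 322, 334 and 357 on 100353_g_at, 4.16-fold lower at 1 h than the mean of the later arrays. Another, 92571_at, read 218, 185, 130 and 184. The dim 100352_at read 21.3, 75.2, 85.5 and 72.6 and 161745_f_at 114, 111, 35.2 and 143. Where each probe set lies along its transcript is not used here, so whether the disagreement goes with that position was not tested.

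**Figure D5:**
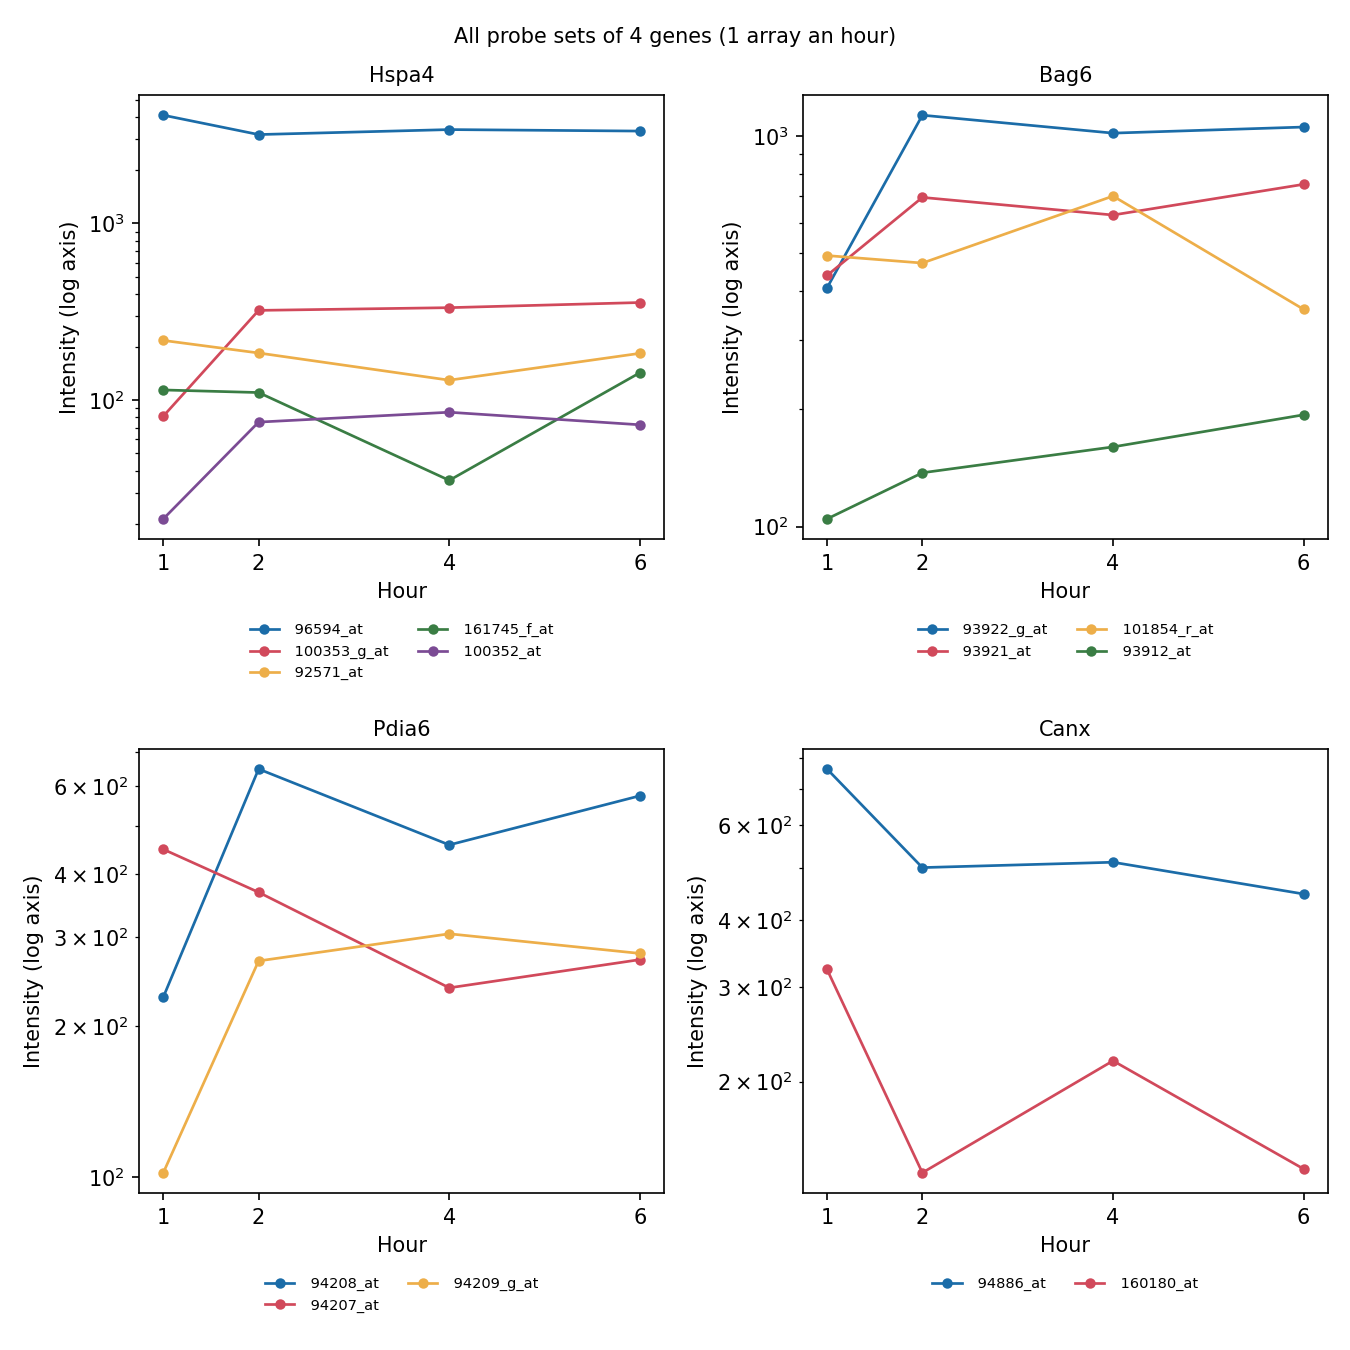
Intensity (log axis) at 1, 2, 4 and 6 h, 1 array an hour, for every probe set of Hspa4, Bag6, Pdia6 and Canx. At 1 h the probe sets of Hspa4 and Pdia6 go opposite ways, 3 of 4 of Bag6 are low, and both of Canx are high; the later arrays of the bright probe sets run closer together.

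Other genes of protein folding were listed by name outside the families above. Of 90 listed genes, 65 were measured by 84 probe sets, of which 72 were kept. In limma 0 of the 72 passed at an adjusted p of 0.05, and 37 slopes were positive. At 1 h, 8 were at least 2-fold lower and 0 at least 2-fold higher than the mean of the later arrays, against 5.29% and 1.8% of all probe sets. Co-chaperones of HSP70 and HSP90 made up 5 of the 8, out of 19 kept. Stip1, the adaptor between the 2 machines, read 176, 487, 395 and 476. Cdc37, which brings kinases to HSP90, read 845, 1717, 1515 and 1895, and Fkbp8 1216, 3327, 3454 and 3846. The phosphatase Ppp5c read 156, 512, 327 and 299. St13 read 21.2, 277, 166 and 110.5 on 1 probe set and 305, 292, 414 and 317 on a brighter one, so only the dimmer was low at 1 h.

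Serpinh1, a probe set of Lonp1 and a probe set of Sel1l were the others that were low. The other Lonp1 probe set was dim, at 45.3, 110.4, 19.5 and 21.9, and the other Sel1l probe set was highest at 1 h. Positive slopes numbered 13 of the 19 co-chaperone probe sets, 8 of 16 of ER folding and redox, 3 of 10 of mitochondrial folding, 4 of 8 of prefoldin and tubulin folding, and 5 of 7 of crystallins and other stress proteins, beside 46.5% of all probe sets.

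Genes of the unfolded protein response had 12 kept probe sets and 4 positive slopes. The highest array was that of 2 h in 7 of the 12 (25.4% of all probe sets), that of 1 h in 3 (35.4%) and that of 4 h in 2 (20.6%). Xbp1, the factor whose spliced form drives ER chaperone genes, read 764, 916, 601 and 801, and Atf4, a factor of the integrated stress response, 1377, 2386, 1908 and 1638. Both were among the 7 that were highest at 2 h. Ppp1r15a, a phosphatase subunit that restores translation, was lowest at 2 h, at 387, 213, 256 and 307, and Ddit3, the factor CHOP, was highest at 4 h, at 236, 265, 341 and 272. Fkbp5, a glucocorticoid-induced HSP90 partner, read 1117, 1651, 1104 and 1252, and Manf, an ER stress-induced secreted protein, 831, 1258, 911 and 995. The genes named from these lists were chosen after their values were seen. Over all 72 kept probe sets of the lists, 29 were highest at 2 h and 17 at 1 h, beside 25.4% and 35.4% of all probe sets.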

How the data were processed

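The authors deposited a table of linear intensity values, a column per array. Per the labels, no program or scaling is recorded for these intensity values. Values were used as deposited. The deposited intensities below 16.4, the 10th percentile over the 12422 probe sets, were raised to that floor before taking log2. Gene names came from the array annotation, with symbols updated through Entrez identifiers to GRCm38.p6. With limma 3.58.1 in R 4.3.3, a slope on the hour was fitted to log2 intensity over 7453 probe sets whose mean log2 value reached the 40th percentile (6.66), using eBayes and a trend on mean intensity, 2 residual degrees of freedom, two-sided tests and Benjamini-Hochberg adjustment. The fit was also run on simulated data, whose outcome is not given here, so no statement above rests on it. The alternatives changed scaling, filter, floor, the time term and the variance prior, and left out each array. Protein sequences were not used here. Differences between hours have no test and were counted at 2-fold. The members and lists were chosen with earlier results of these data known. The rule for genes given array by array took, in each family, the 3 brightest probe sets, the 2 of largest slope, those 2-fold from the mean of the other arrays and other probe sets of those genes, 59 in all; further members so given were chosen after their values were seen. Marker lists covered neurons, granule cells, CA pyramidal cells, interneurons, astrocytes, oligodendrocytes, microglia, endothelium, choroid plexus with ependyma, and erythrocytes. Figures were drawn with matplotlib 3.10.9 in Python 3.11.15.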

Additional observations from a re-analysis of the deposited data

Results flagged for a closer look

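In 5 of the 79 kept chaperone probe sets (6.33%), 1 of the 4 arrays stood far from the other 3, by a gap whose share of the whole range on the log2 scale was above Dixon's 95% critical value for 4 samples. Over all 7453 kept probe sets the share was 8.63%, and chance flags about 1 in 20. In all 5 the outlying array was that of 1 h. Of the 643 flagged among all kept probe sets, it was that of 1 h in 390, which is 5.23% of all kept. Among the 5, the 1 h array was the lowest for Hspa4 on 100353_g_at (81.2), Hspb8 on 160139_at (474), Bag6 on 93922_g_at (408) and Pdia6 on 94209_g_at (102), and the highest for Hspe1 (2553). The Gapdh 3' to 5' ratio of that array was 4.88, against 1.13 to 1.33 in the others, and its part in these values was not tested.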

How the results depend on the processing

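No paired analysis was possible because the series has 1 group of controls with no shared replicate numbers. Under all 12 alternatives of the trend, 0 chaperone probe sets passed at an adjusted p of 0.05 in limma. At an unadjusted p under 0.05 the count went from 3 to 5 with median scaling, 5 with no filter and 10 on the log2 of the hour, and between 1 (without 6 h) and 16 (without 2 h) with an array left out. Members 2-fold from the mean of the other arrays numbered 18, 5, 7 and 6 at 1, 2, 4 and 6 h with no filter, where dim probe sets enter, and 4, 0, 0 and 0 at the 60th percentile, where fewer are counted. At 1.5-fold they numbered 20, 8, 7 and 8. The 1 member at 2 h was lost against the median of the other arrays (0), and leaving out an array gave 0 to 2 at 2, 4 and 6 h. Against 1 h, the counts at 2, 4 and 6 h were 20, 21 and 19 with no filter, 6, 4 and 4 at the 60th percentile, 21, 19 and 20 at 1.5-fold, and 0, 1 and 0 against the other later hours. Counts under another filter, fold, scaling or time term, or with an array left out, have no share over all probe sets beside them. Such counts do not show whether the chaperones differed from other probe sets. Slopes that turned sign did so mainly without the 1 h array. With an array left out, slopes ranged from -0.129 to 0.024 for Hsp90aa1, -0.038 to 0.081 for Hsp90b1, -0.038 to 0.119 for Hspb2, -0.005 to 0.146 for Hspb8, -0.006 to 0.025 for Hspd1, -0.158 to 0.009 for Hspe1, -0.08 to 0.057 for Dnaja2, -0.103 to 0.484 for Dnajb5, -0.025 to 0.365 for Bag6 (93922_g_at), -0.044 to 0.272 for Pdia6 (94208_at), -0.242 to 0.006 for Canx (160180_at) and -0.015 to 0.083 for Hspbp1. For Hspb2 the slope was also 0.005 with median scaling, and the late minus early difference was 0.087; for Dnaja2 that difference was -0.034. The cause was not tested. Few arrays and values near the floor limit what these data can show.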
